A study of Mus musculus with 15 samples.

Results

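The Ifng bait was read by 4C-seq in 3T3-L1 cells on day 6 and on day 0 of adipogenesis, in 4 of the 27 libraries of the series: 2 of day 6 and 2 of day 0. These libraries were chosen by bait and day, with earlier results of these data known. 4C-seq (circular chromosome conformation capture with sequencing) cuts fixed chromatin, joins ends that lay close together in the nucleus and sequences what was joined to 1 chosen site, the bait. The series also holds days 1 and 2, a B lymphocyte cell line and baits at Pparg and Lpin1.

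3T3-L1 is a mouse preadipocyte line, and all 4 libraries come from it. Day 6 cells are labelled mature adipocytes. Past confluence they were given dexamethasone (1 μM), 3-isobutyl-1-methylxanthine (0.5 mM) and insulin (1 μg/ml) in 10% fetal calf serum. Serum with insulin alone followed on day 2, and the serum without added hormones after that. Day 0 cells are labelled preadipocytes and are post-confluent cells at the point where the cocktail was added. Both groups share the line, 2% formaldehyde fixation, HindIII as the first enzyme and DpnII as the second. The labels do not say what share of day 6 cells had become adipocytes or whether the 2 libraries of a day came from separate cultures. The spread behind each p-value is therefore that of these libraries and may be technical. Contact counts hold no transcripts, so the labelled stage could not be checked against marker genes.

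Ifng encodes interferon gamma, a cytokine that activates macrophages and is made by T and natural killer cells. Contacts of any bait fall steeply with distance along its own chromosome. Over long distances, active, gene-rich chromatin tends to touch other active chromatin, and inactive chromatin other inactive chromatin. In RefSeq's gene table for GRCm38.p6, the protein-coding genes next to Ifng towards lower coordinates are Iltifb and Il22, which encode cytokines of the interleukin-22 kind. Mdm1, Rap1b (a small GTPase), Nup107 (a nuclear pore protein) and Mdm2 (a ubiquitin ligase for p53) lie beyond them. Towards higher coordinates lie Dyrk2 (a protein kinase), Cand1 (a regulator of cullin ubiquitin ligases) and Grip1 (a synaptic scaffold protein). That table is of another build than the counts, so windows are given by their mm9 position and no gene is assigned to one.

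The bait site lay at 117870359 to 117870364 bp of chromosome 10 (mm9), and its 4 HindIII sites within 10 kb were left out. That left 41008 HindIII sites on chromosome 10 and 782343 on other chromosomes. The bait site itself took 88.4% and 91.8% of all reads on day 6 (replicates 1 and 2), against 61.3% and 58.7% on day 0. The depth behind each comparison was therefore 110369 and 156614 reads on day 6, and 715133 and 330928 reads on day 0. Both day 6 libraries were shallower than both day 0 libraries, so depth and day cannot be told apart in any measure that moves with depth. Of the captured sites on other chromosomes (sites with at least 1 read), 66.5% and 65.9% held a single read on day 6, and 40.8% and 49.2% on day 0. Duplicate removal is not stated, so reads are not known to be independent molecules.

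Close to Ifng the profiles of day 6 and day 0 lay on top of each other. The site with the most reads outside the excluded zone was the same on both days, 12.3 kb from the bait at 117858021 bp, towards Iltifb. It held 2.84% and 3.07% of chromosome 10 reads on day 6, and 3.02% and 2.70% on day 0. The days overlapped there. The 100-kb window that holds the bait had 11.97% and 13.6% of chromosome 10 reads on day 6, and 13.6% and 14.0% on day 0. The next window towards Dyrk2 had 12.4% and 13.7% on day 6, and 11.96% and 13.2% on day 0. The day 6 shares lay just below the day 0 shares in the first of these windows and overlapped with them in the second.

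Reads were uneven at short range in the same way on both days. The 14 HindIII sites 50 to 100 kb away on the low-coordinate side were nearly empty, with 0.0311% and 0.0310% of chromosome 10 reads on day 6 and 0.0657% and 0.0783% on day 0. The 17 sites at the same distance on the high-coordinate side held 6.85% and 7.83% on day 6, and 6.64% and 7.37% on day 0. In the nearly empty bin only 14.3% of sites were captured in each of the 4 libraries, so its lower day 6 share rests on very few sites. Whether reads from its other sites could be aligned or passed the read filters was not tested. Of 21 distance bins over both sides, 0 were higher and 2 were lower on day 6 with no overlap between the libraries of the days, or 9.52% of the bins. The 2 were this bin and the bin 200 to 500 kb away on the low side (4.81% and 5.12% on day 6, 5.20% and 5.30% on day 0). The count leaves out differences within a replicate number. The bin 2000 to 5000 kb away on the high side had 2.18% and 1.48% on day 6, against 1.59% and 0.915% on day 0. Day 6 was higher there within both replicate numbers. The bin 1000 to 2000 kb away on the low side was lower within both (5.57% and 5.93% on day 6, 5.72% and 6.49% on day 0). Other bins went each way too, and the labels do not pair the replicate numbers.

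**Figure D1:**
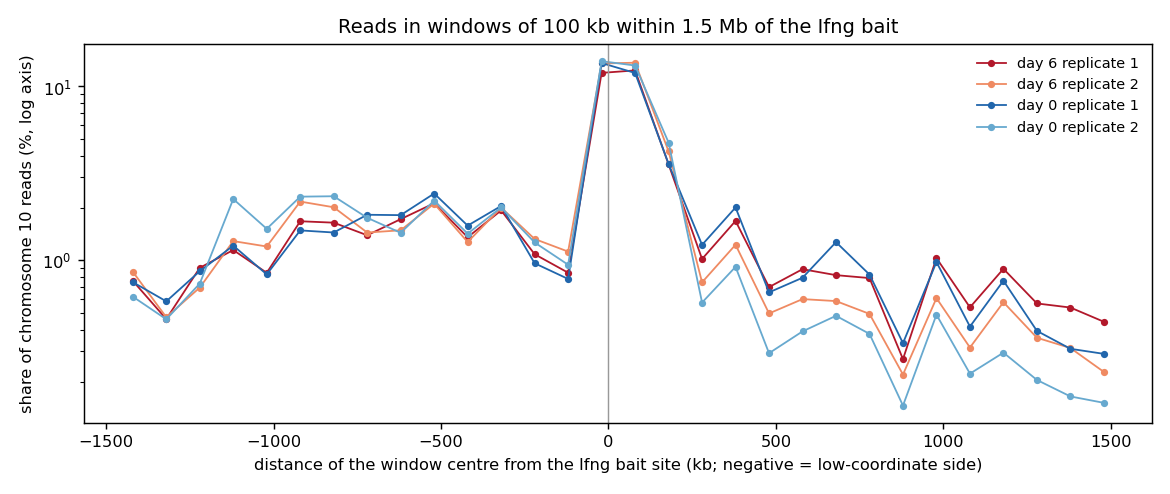
Share of chromosome 10 reads (%, log axis) in 100-kb windows within 1.5 Mb of the Ifng bait, against the distance of the window centre from the bait (kb), with 1 line for each library of day 6 and day 0. The 4 lines run close together beside the bait, and beyond about 200 kb on the high-coordinate side the replicate 2 line of each day lies below its replicate 1 line.

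Within 1 Mb of the bait lay 49.1% and 51.8% of chromosome 10 reads on day 6, against 51.8% and 51.9% on day 0. The day 6 mean was 50.5% ± 1.92 and the day 0 mean 51.8% ± 0.00452 (SD, n = 2 each), a difference of -1.38 percentage points (two-sided exact permutation test, p = 0.333, the smallest p that 2 against 2 allows). The day 6 values lay below the day 0 values, but within replicate 2 the difference was only -0.0277 points. Of these near reads, 50.3% and 52.7% lay on the low-coordinate side on day 6, and 51.2% and 54.6% on day 0, which overlapped (difference -1.41 points, p = 0.667, exact permutation test). Within the replicate numbers the low-coordinate share differed by -0.910 and -1.91 points.

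Chromosome 10 as a whole took a slightly smaller share of the reads on day 6. It held 66.97% and 65.97% of the reads left on day 6, against 70.3% and 67.5% on day 0, or 66.5% ± 0.703 and 68.9% ± 1.93 (SD, n = 2 each). The difference of -2.42 points had p = 0.333 in the two-sided exact permutation test, and the libraries of the days did not overlap. Counting captured sites in place of reads turned the sign to +6.16 points, captured sites at equal depth gave +2.71 points, and reads capped at the 99th percentile per site gave +8.74 points. The lower share on day 6 thus held for uncapped reads only.

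Reads fell off with distance at a similar rate on both days. The slope of log10 reads per site on log10 distance, from 10 kb to 20 Mb, was -0.930 and -0.980 on day 6, and -0.962 and -1.01 on day 0. The day 6 slopes were flatter by 0.0286 on average (p = 0.667, two-sided exact permutation test), a smaller gap than that between replicates 2 and 1 (-0.0498 on day 6 and -0.0437 on day 0). Within the replicate numbers the day 6 slope was flatter by 0.0317 and 0.0256. Beyond 20 Mb lay 7.68% and 5.63% of chromosome 10 reads on day 6, and 6.83% and 4.38% on day 0. In each replicate number the day 6 share was the higher one, by 0.852 and 1.24 points, while replicate 2 lay below replicate 1 by 2.05 points on day 6 and by 2.45 points on day 0. The exact permutation p for the difference of 1.05 points was 0.667, and without day 0 replicate 2 the difference was -0.174 points.

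A stretch of chromosome 10 that lies 9.87 to 11.4 Mb from the bait, on the low-coordinate side, carried about as many far reads as the rest of the chromosome. It holds 493 HindIII sites, or 1.22% of those over 1 Mb away. Of the reads over 1 Mb from the bait it took 41.3% and 54.6% on day 6, against 47.9% and 63.0% on day 0, which overlapped (difference -7.46 points, p = 0.667, two-sided exact permutation test). Within the replicate numbers its share differed by -6.54 and -8.37 points. Its sites were densely captured on both days: 72.2% and 72.4% of them on day 6, and 81.5% and 77.3% on day 0. Within it, the window at 106.8 to 106.9 Mb held 3.01% and 4.03% of chromosome 10 reads on day 6, and 3.29% and 4.75% on day 0. For comparison, the window whose centre lies 180 kb from the bait (118 to 118.1 Mb) held 3.57% and 4.24% on day 6, and 3.59% and 4.76% on day 0.

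Leaving the stretch out moved the shares of both days together and kept the sign of each difference. Reads within 1 Mb then made up 62.2% and 70.3% on day 6, and 67.4% and 74.4% on day 0, with overlapping libraries (difference -4.64 points, p = 0.667, two-sided exact permutation test). Within the replicate numbers this share differed by -5.19 and -4.09 points. The chromosome 10 share became 61.6% and 58.8% on day 6, and 64.5% and 59.2% on day 0 (difference -1.65 points, p = 0.667, exact permutation test). The share beyond 20 Mb became 9.72% and 7.63% on day 6, and 8.87% and 6.29% on day 0 (difference 1.10 points). Without the bins that meet the stretch, the slope was -1.08 and -1.18 on day 6, and -1.14 and -1.25 on day 0. It was flatter on day 6 by 0.0648 on average (p = 0.667, exact permutation test), and by 0.0616 and 0.0680 within the replicate numbers. Of the 21 distance bins, 0 were then higher and 1 was lower on day 6 without overlap, or 4.76%. Here too, overlapping bins went both ways within the replicate numbers, by distance much as before. The low-side bin 10000 to 13000 kb away was now higher on day 6 within both (0.846% and 0.527%, against 0.710% and 0.430% on day 0).

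**Figure D2:**
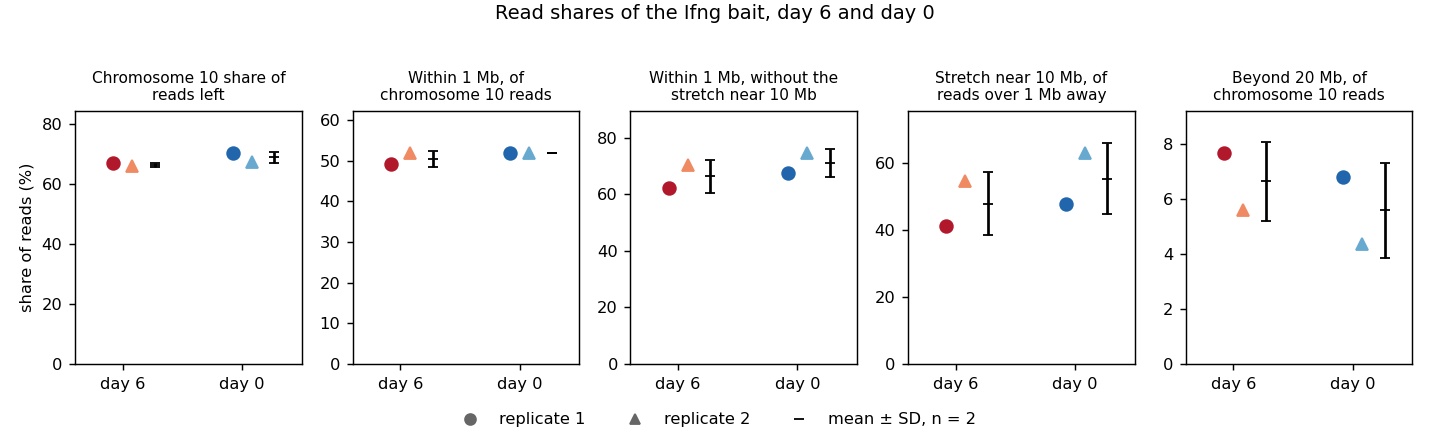
Shares of reads (%) on day 6 (left in each panel) and day 0 (right), with replicate 1 as a circle, replicate 2 as a triangle and the mean ± SD of the 2 libraries beside them; each axis starts at 0. In the 3 right-hand panels the replicates of a day lie farther apart than the means of the days.

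In several segments of chromosome 10 the replicate number separated the libraries more than the day did. From the bait to 118.1 Mb, replicate 2 held 1.13 times the share of replicate 1 on day 6 and 1.15 times on day 0. From 118.1 to 119 Mb the ratio was 0.683 on day 6 and 0.456 on day 0. Every one of the 13 windows of 100 kb that start at 118.1 to 119.3 Mb was lower in replicate 2 on both days, with ratios of 0.515 to 0.815 on day 6 and 0.377 to 0.536 on day 0. These bounds were chosen after the values were seen.

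The stretch 9.87 to 11.4 Mb away went the other way, with replicate 2 over replicate 1 at 1.25 on day 6 and 1.32 on day 0. Its neighbours did not share this: from 100 Mb up to the stretch the ratio was 0.622 on day 6 and 0.536 on day 0, and between the stretch and 116 Mb it was 0.582 on day 6 and 0.562 on day 0. On the low side of the bait, from 116 Mb on, it was 1.10 on day 6 and 1.08 on day 0. The same segments thus stood apart on both days. In 100-kb windows within 20 Mb of the bait, the log2 difference between replicates 1 and 2 of day 6 correlated with that of day 0 at 0.14 (321 windows), in 1-Mb windows at 0.75 (32 windows), and in 100-kb windows beyond 20 Mb at 0.011 (827 windows). These are descriptions over windows that share libraries.

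At 100 kb, 1 of 1148 tested windows of chromosome 10 passed the threshold between day 6 and day 0, which is 0.0871% of them (edgeR's quasi-likelihood test with Benjamini-Hochberg adjustment at 0.05, all 9 libraries of the bait in the fit). At an unadjusted p under 0.05 there were 100 windows, 46 higher and 54 lower on day 6, or 8.71%. With the replicate number as a block over the 8 3T3-L1 libraries, 6 windows passed, 3 higher and 3 lower. DESeq2 called 0 windows, with 72 at an unadjusted p under 0.05. The 2 days did not overlap in 442 windows, or 38.5%. The window that passed, at 110.1 to 110.2 Mb and 7.72 Mb from the bait, had 56 and 44 reads on day 6, against 63 and 24 reads on day 0.

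As normalised reads (CPM, by each library's TMM-adjusted depth), that window stood at 558 and 448 on day 6, and at 114 and 153 on day 0. Both day 6 libraries lay above both day 0 libraries (503 ± 77.5 and 134 ± 28.0 CPM, SD, n = 2 each). On the log2 scale it rose by 1.94 ± 0.46 (SE), with an adjusted p of 0.0234. Its captured share did not separate the days: 30.4% and 39.1% of its 23 sites were captured on day 6, and 39.1% and 26.1% on day 0. Over 17 other settings its log2 difference ran from 0.73 to 2.33, positive in each, and it passed in 9 of them (adjusted p 0.00361 to 0.925). It did not pass without any 1 of the 4 libraries of these days, nor without day 2 replicate 2 (adjusted p 0.0569 to 0.408).

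No other 100-kb window passed, and the ones with the next smallest p rest on few reads. The window at 87.2 Mb had 40 and 15 reads on day 6, against 35 and 10 on day 0 (log2 difference 2.11, adjusted p 0.0588). The window at 83.4 Mb had 37 and 8 reads on day 6, and 14 and 14 on day 0 (2.16, adjusted p 0.0623). In both windows the raw reads of the days overlapped, and day 6 replicate 1 had the most, but raw reads also carry the depth of a library. As CPM, the window at 87.2 Mb had 399 and 153 on day 6, against 63.2 and 64.0 on day 0, without overlap. The window at 83.4 Mb had 369 and 81.5 CPM on day 6, and 25.3 and 89.5 CPM on day 0, which overlapped. In the other direction, the window at 28.6 Mb had 0 and 0 reads on day 6, against 64 and 23 on day 0, with an adjusted p of 0.0623. At 33.1 Mb there were 0 reads and 1 read on day 6, against 61 and 19 on day 0 (adjusted p 0.0623). Both were nearly unread on day 6 and read in both day 0 libraries. The window at 72.7 Mb had 8 and 14 reads on day 6, against 255 and 39 on day 0, and a log2 difference of -1.70 (adjusted p 0.132).

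Around the bait and in the stretch, 100-kb windows gave no call. Of the 20 tested windows within 1 Mb of Ifng, 0 passed and 0 had an unadjusted p under 0.05, with a median log2 difference of -0.36. Of the 15 windows of the stretch, 0 passed and 0 had an unadjusted p under 0.05, with a median of -0.44. The log2 differences had an SE of 0.53 to 0.91 in the 6 windows nearest the bait, and of 0.53 to 0.70 in the most captured windows of the stretch. With an SE of that size, the lack of calls does not show these windows to be unchanged. The median over all 1148 windows was -0.09. Without TMM scaling that median moved to 0.22, with 0 windows passing in edgeR and 58 at an unadjusted p under 0.05. The window with the bait, for example, had 88170 and 142751 CPM on day 6, and 123826 and 199673 CPM on day 0 (log2 difference -0.49, adjusted p 0.915). Its shares of chromosome 10 reads, given above, differed less between replicates. CPM also carry the TMM factors, which were 1.36 and 0.951 on day 6, and 1.10 and 0.701 on day 0.

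Summed over 1 Mb, far contacts of Ifng separated day 6 and day 0 in both directions. Of 127 windows of 1 Mb, 13 passed, or 10.2%, with 7 higher and 6 lower on day 6 (same edgeR test). At an unadjusted p under 0.05 there were 23 windows, or 18.1%, and in 75 windows, or 59.1%, the libraries of the days did not overlap. All 7 higher windows lay between 68 and 99 Mb, 19.4 to 49.4 Mb from Ifng, and all 6 lower ones lay farther away, below 66 Mb. Each of the 13 lay on the low-coordinate side, as did 114 of the 127 windows tested (89.8%). With the replicate number as a block over the 8 3T3-L1 libraries, 20 windows passed, 12 higher and 8 lower.

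The window at 83 to 84 Mb, 34.4 Mb from the bait, had the smallest p. It had 133 and 113 reads on day 6, against 258 and 99 on day 0, which is 1358 and 1191 CPM on day 6, and 455 and 613 CPM on day 0. The days were far apart relative to the spread within each (1275 ± 118 and 534 ± 112 CPM, SD, n = 2 each), and the window rose on the log2 scale by 1.28 ± 0.25 (SE), with an adjusted p of 0.000718. It passed in 15 of 17 other settings, including all 8 that left out 1 library. In captured sites it held 15.9% and 19.7% of its sites on day 6 and 23.3% and 18.4% on day 0, and the log2 difference was 0.52 (adjusted p 0.0528).

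The densest group of higher windows ran from 92 to 99 Mb, a block whose bounds were set after the values were seen. In each of its 7 windows both day 6 libraries lay above both day 0 libraries, with log2 differences of 0.53 to 1.31, and 4 of the 7 passed. Of all 127 windows, 59.1% did not overlap in either direction and 10.2% passed. The block was set on these same values, so its counts are descriptions. The window at 93 to 94 Mb had 1215 and 1665 CPM on day 6, against 684 and 650 CPM on day 0, which is 1.10 ± 0.23 on the log2 scale (adjusted p 0.00115). The one at 96 to 97 Mb had 541 and 717 CPM on day 6, against 219 and 303 CPM on day 0 (1.31 ± 0.33, adjusted p 0.00829). The windows on either side of it, at 95 and 97 Mb, did not pass and had adjusted p of 0.0564 and 0.202. In captured sites the log2 difference was 0.48 at 93 Mb (adjusted p 0.0455) and 0.42 at 94 Mb (adjusted p 0.153). At 96 and 98 Mb it was 0.32 and 0.28 (adjusted p 0.330 and 0.303).

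Outside this block, 2 more windows rose in reads, those starting at 68 and 87 Mb. At 68 Mb there were 715 and 527 CPM on day 6, against 201 and 316 CPM on day 0 (1.31 ± 0.37, adjusted p 0.0137). At 87 Mb there were 1256 and 1065 CPM on day 6, against 627 and 693 CPM on day 0 (0.82 ± 0.25, adjusted p 0.0244). In captured sites neither passed, with log2 differences of 0.38 at 68 Mb (adjusted p 0.356) and 0.39 at 87 Mb (adjusted p 0.162). At 68 Mb the most-read site alone held 15.7% and 30.0% of the window's reads on day 6, and 15.8% and 9.80% on day 0.

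**Figure D3:**
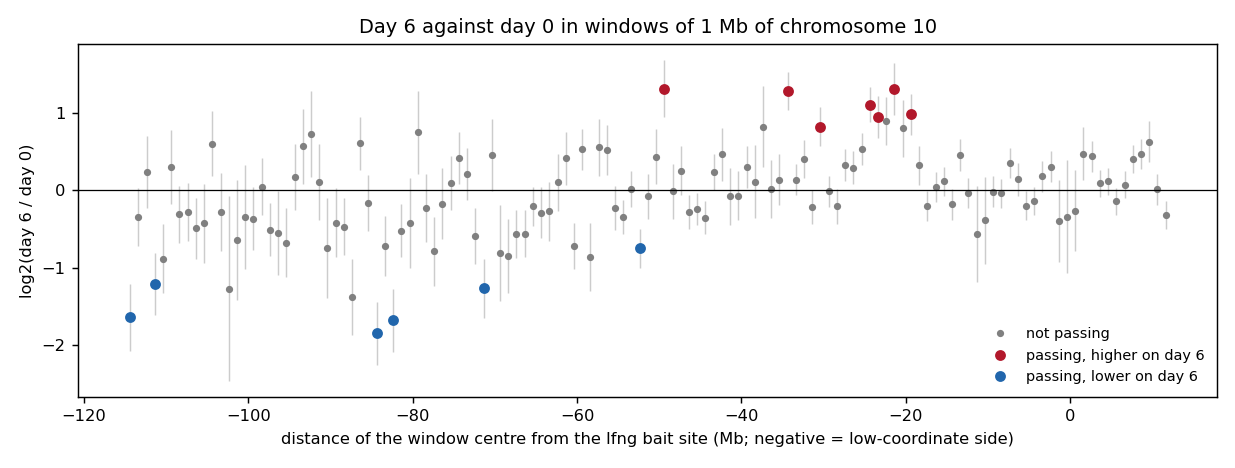
Log2 difference between day 6 and day 0 (with its SE) in 127 windows of 1 Mb of chromosome 10, against the distance of the window centre from the Ifng bait (Mb). Red points passed and are higher on day 6 (7 windows, 19.4 to 49.4 Mb away), blue points passed and are lower (6 windows, 52.4 to 114 Mb away), and grey points did not pass.

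The lower windows were spread over the far part of the chromosome and held few reads on day 6. The window at 33 to 34 Mb, 84.4 Mb away, had 12 and 22 reads on day 6, against 368 and 100 on day 0. In CPM this was 123 and 232 on day 6, and 649 and 619 on day 0, so it fell by 1.84 ± 0.41 (SE) on the log2 scale (adjusted p 0.00215). Its captured share was 2.80% and 5.32% of sites on day 6, against 16.5% and 11.8% on day 0, and the log2 difference in captured sites was -1.04 (adjusted p 0.0113).

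The window at 35 to 36 Mb was alike, with 245 and 200 CPM on day 6, against 557 and 892 CPM on day 0 (log2 difference -1.68 ± 0.40, adjusted p 0.00471). At 3 to 4 Mb, next to the centromeric end of the assembly, there were 102 and 190 CPM on day 6, against 425 and 489 CPM on day 0 (-1.64 ± 0.44, adjusted p 0.0106). The remaining 3, at 46, 6 and 65 Mb, had log2 differences of -1.27, -1.21 and -0.75 and adjusted p of 0.0209, 0.0467 and 0.0467. The day 6 libraries lay below both day 0 libraries in all 6.

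Seen by position, the 2 directions did not mix among the windows that passed. Below 66 Mb, 0 of 63 windows passed as higher and 6 as lower, with a median log2 difference of -0.34. From 66 to 100 Mb, 7 of 34 windows passed as higher and 0 as lower, with a median of 0.30. The median of all 127 windows was -0.04. The 2 windows beside the bait stood at -0.34 ± 0.73 and -0.26 ± 0.52 (SE), and neither passed. The bounds of 66 and 100 Mb were set after the values were seen.

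**Figure D4:**
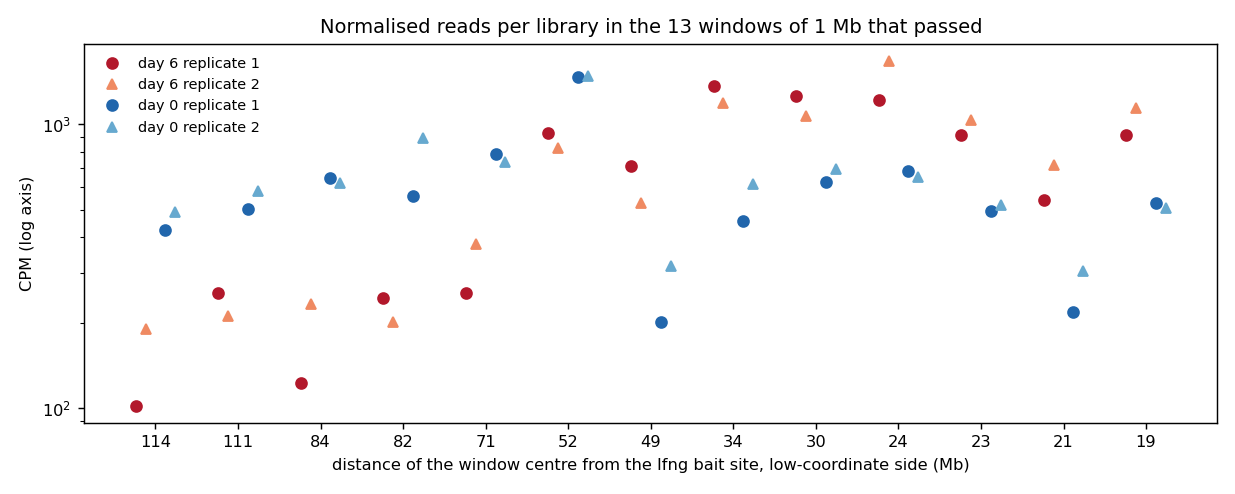
Normalised reads (CPM, log axis) in the 13 windows of 1 Mb that passed, in the 2 libraries of day 6 (red, left of each position) and of day 0 (blue, right), ordered by the distance of the window centre from the bait (Mb). In each window the libraries of the days do not overlap; day 6 lies lower in the 6 most distant windows and higher in the other 7.

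The 13 calls kept their sign, and fewer passed without the scaling or without 1 of the 4 libraries of day 6 and day 0. Each kept its sign in 17 other settings and passed in 10 to 15 of them. Without TMM scaling, which moved the median log2 difference of all windows to 0.23, 0 of 127 passed in edgeR and 9 had an unadjusted p under 0.05. The log2 differences were of a similar size there, 1.12 to 1.64 in the 7 higher windows (0.82 to 1.31 with the scaling) and -1.65 to -0.46 in the 6 lower ones (-1.84 to -0.75 with it). Counts also fell without a library of either day: there were 6 calls without day 6 replicate 1, 7 without day 6 replicate 2, 5 without day 0 replicate 1 and 6 without day 0 replicate 2. With captured sites in place of reads 10 windows passed, 1 higher and 9 lower, and not all of these were among the 13. Of the 13, the windows at 3, 6, 33, 35, 46 and 93 Mb passed in captured sites and the others did not. The libraries of 1 day were more alike than those of different days at this size: the Spearman correlation across 127 windows was 0.952 between the day 6 libraries, 0.969 between the day 0 libraries and 0.899 to 0.905 between days. These are descriptions, over windows that share a library, its depth and its distance from the bait.

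At 100 kb the correlation across 1113 windows over 1 Mb away and outside the stretch was 0.749 between the day 6 libraries and 0.811 between the day 0 libraries. Between days it was 0.716 to 0.753, so the day 6 pair was no closer than some pairs of different days.

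The 13 windows can be set beside the other libraries of the same fit. These windows were picked for their distance from the same 2 day 0 libraries, so nothing is read from how often days 1 and 2 fall on the day 6 side. In 6 of the 7 windows that were higher on day 6, all 4 libraries of days 1 and 2 also lay above both day 0 libraries; the exception was the window at 68 Mb. This held in 11 of all 34 windows from 66 to 100 Mb and in 18 of all 127. At 83 Mb, days 1 and 2 had 1202 and 1653, and 1134 and 1099 CPM. In 5 of the 6 windows that were lower on day 6, all 4 libraries of days 1 and 2 lay below both day 0 libraries, the exception being that at 3 Mb. This held in 20 of all 63 windows below 66 Mb and in 21 of all 127. The single B cell library lay above both day 6 libraries in all 7 of the higher windows, with 4802 CPM at 93 Mb, and below both day 0 libraries in all 6 of the lower ones. It also lay above both day 6 libraries in 27 of all 34 windows from 66 to 100 Mb (79.4%), and in 56 of all 127 (44.1%). It lay below both day 0 libraries in 42 of all 63 windows below 66 Mb (66.7%), and in 59 of all 127 (46.5%). The 13 windows were picked on the same day 6 and day 0 libraries, so nothing is read from the B cell counts either.

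On the other chromosomes no difference between the days passed. Of 4134 windows of 500 kb tested on captured sites, 0 passed in edgeR's quasi-likelihood test, or 0.0%, and 165 had an unadjusted p under 0.05, or 3.99%. DESeq2 called 0, with 11 at an unadjusted p under 0.05. The smallest p belonged to chromosome 4 at 74.5 Mb, where 0 and 0 of 176 sites were captured on day 6 (which allows a share of up to 1.70% in each library, by counting error alone), against 8 and 9 on day 0 (adjusted p 0.986). Among windows higher on day 6 the smallest was at 56 Mb of chromosome 11, with 8 and 6 captured sites on day 6, and 4 and 3 on day 0 (adjusted p 0.986).

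The most captured places elsewhere in the genome were shared by the days and lay on chromosomes 6 and 16. Of the 50 windows with the highest captured share in each library, 31 were in all 4 lists, 5 of them on chromosome 6, 26 on chromosome 16 and 0 elsewhere. Any 2 libraries shared 32 to 42 of their 50, and the 2 day 6 libraries shared 39. The window with the highest mean lay on chromosome 6 and starts at 106000001 bp. It had 45.4% and 49.7% of its 163 sites captured on day 6, against 77.3% and 46.0% on day 0. The days overlapped in that share, and the log2 difference was 0.74 ± 0.51 (SE, adjusted p 0.986).

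Captured shares depend on depth, so they were also set against each library's own mean over the chromosomes other than 10. A site counts once however many reads it holds, so in densely captured windows this multiple can still move with depth. By that multiple the same window stood at 21.4 and 15.1 times the mean on day 6, and at 13.7 and 7.57 times on day 0. In reads per site it stood at 45.3 and 17.7 times the mean on day 6, and at 87.5 and 10.7 times on day 0. The days overlapped in reads, so no rise is read from the captured multiple. On chromosome 16 the window at 43.5 to 44 Mb stood at 14.0 and 10.97 times on day 6, and 12.6 and 6.89 times on day 0 (log2 difference 0.32, adjusted p 0.986).

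By chromosome, the order of capture was nearly the same on both days. Chromosome 16 led with 2.89 and 2.49 times the mean on day 6, and 3.29 and 2.17 times on day 0, followed by chromosome 6 with 2.06 and 1.78 times on day 6, and 2.28 and 1.52 times on day 0. The X chromosome was lowest, at 0.406 and 0.431 times on day 6, and 0.426 and 0.528 times on day 0. Across the 19 chromosomes the mean multiples of day 6 and day 0 had a Spearman correlation of 0.981. In captured sites only chromosome 11 separated the days, with 0.911 and 0.923 times on day 6, against 0.848 and 0.875 times on day 0, and that is 1 of 19 chromosomes (5.26%), without a test. In reads per site 3 of 19 separated them, chromosomes 9, 11 and 19, each higher on day 6, also without a test. The multiples share a fixed total, so a high value on 1 chromosome lowers the others. In reads, chromosome 16 stood at 3.00 and 2.31 times on day 6, and 5.39 and 2.39 times on day 0. Chromosome 6 stood at 2.51 and 1.77 times on day 6, and 3.32 and 1.56 times on day 0.

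**Figure D5:**
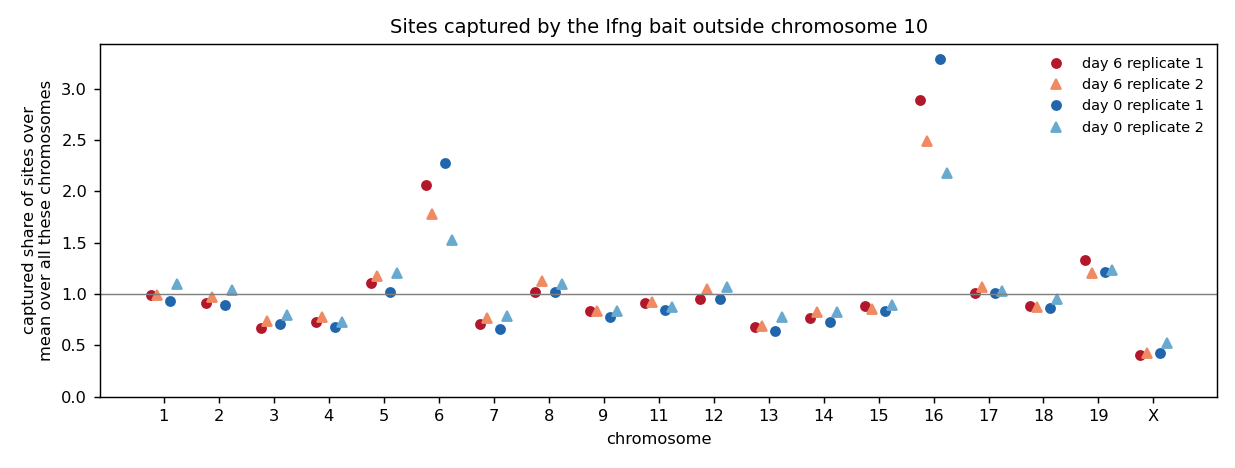
Captured share of HindIII sites on each chromosome other than 10, as a multiple of the mean over all these chromosomes in the same library, for the 2 libraries of day 6 (red) and of day 0 (blue). Chromosomes 16 and 6 stand above the rest in all 4 libraries and X lies lowest, while the days overlap on 18 of 19 chromosomes.

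The differences per chromosome were small, and their relation to gene density varied with the libraries set against each other. Across 19 chromosomes, the day 6 minus day 0 difference in the multiple and the number of protein-coding genes per 1000 HindIII sites had a Spearman correlation of 0.70. It was 0.54 within replicate 1 and 0.42 within replicate 2, 0.42 and 0.27 with the replicate numbers crossed, and 0.64 at equal depth over all 4 libraries. Replicate 1 minus replicate 2 gave 0.26 within day 0, about as much as the lower crossed value, and 0.021 within day 6. Pearson's r was 0.66 over all 4 libraries but 0.30 within replicate 1, 0.078 within replicate 2, and -0.012 and 0.20 crossed. For the other baits the Spearman value over 4 libraries was -0.48 (Pparg) and -0.0053 (Lpin1). Chromosomes share libraries, depth and a fixed total, so these values are descriptions. The differences ran up to 0.0560 on chromosome 11, with 44.4 genes per 1000 sites, and down to -0.0586 on X, with 18.1. Chromosome 7, the most gene-dense with 46.1, differed by 0.0135, and chromosome 4, with 27.5, by 0.0446.

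The number of sites reached on other chromosomes was lower on day 6 as found, with 2.13% and 3.29% of sites captured on day 6, against 5.66% and 6.08% on day 0 (difference -3.16 points, p = 0.333, two-sided exact permutation test). At an equal depth of 36456 reads on other chromosomes, the expected shares were 2.13% and 2.56% on day 6, and 2.49% and 3.21% on day 0. The days then overlapped, and the difference was -0.508 points (p = 0.667, exact permutation test).

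The day 6 change of the share within 1 Mb was not shown to differ from that of the other baits. It was -1.38 points for Ifng, -2.06 points for Pparg, which encodes a nuclear receptor that drives adipogenesis, and 2.15 points for Lpin1, whose product lipin-1 is an enzyme of triglyceride synthesis. The difference between Ifng and Pparg was 0.681 points (two-sided exact permutation test, p = 0.833), and that between Ifng and Lpin1 was -3.53 points (p = 0.389, adjusted over 2 pairs p = 0.778). The smallest p this design allows is 0.0556.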

How the data were processed

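The submitters' processing notes list the build mm9 and Bowtie, a read aligner, whose version is not given in the sources used here. The authors deposited counts: for each of 823355 HindIII sites, a whole number of reads, not scaled in any way. Read filters are not given in the sources used here. Replicate numbers come from the deposited names.

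The site with the most reads was taken as the bait. Reads were summed over windows of 100 kb and 1 Mb of chromosome 10 (after filterByExpr), and captured sites over windows of 500 kb elsewhere (mean of at least 3). The window tests used edgeR 4.0.16 (R 4.3.3; robust quasi-likelihood fit with TMM over 9 libraries in 5 groups, Benjamini-Hochberg within a contrast), with DESeq2 1.42.0 as an alternative. The fits were tested on simulated data. Shares were compared by exact permutation in SciPy 1.17.1. Equal-depth values are expectations computed exactly. With reads of unknown duplication, the number of libraries limits precision.

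The libraries, the stretch 9.87 to 11.4 Mb from the bait and the window rule were chosen with earlier results of these data known. Windows of 1 Mb were listed beforehand as another window size and are given as a result of their own; the other settings tried on them were chosen after seeing the data. Named per window size were up to 10 windows per direction that passed without overlap of the days, by smallest p, or the 3 with the smallest p where fewer than 3 passed. The rule also takes the 6 windows nearest the bait and the most captured ones, of which examples are given. No sequences are printed, since no mm9 genome was used here.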

Additional observations from a re-analysis of the deposited data

How the results depend on the processing

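The direction of the read shares and of the slope depended on the unit. When captured sites stood for reads, the day 6 minus day 0 difference was 6.16 points for the chromosome 10 share, 2.15 within 1 Mb, -8.22 beyond 20 Mb and 1.66 for the stretch, and -0.0561 for the slope. With reads per site capped at the 99th percentile these were 8.74, 3.76, -3.66, 6.00 and -0.0781, and 4.21 for the low-coordinate share of near reads. Captured sites at equal depth gave 2.71 for the chromosome 10 share. The difference between the Ifng and Pparg baits was -2.90 with captured sites. Capping limits the sites nearest the bait, and captured sites move with depth; beyond that the cause was not tested.

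Leaving out each library in turn gave -3.79 to -1.05 points for the chromosome 10 share, -2.74 to -0.0245 within 1 Mb, -0.174 to 2.27 beyond 20 Mb, -15.0 to 0.0980 for the stretch and -3.12 to 0.294 for the low-coordinate share. It gave 0.00374 to 0.0536 for the slope, -0.869 to -0.146 for the equal-depth captured share, -0.674 to 2.04 for Ifng minus Pparg and -4.88 to -2.17 for Ifng minus Lpin1. The sign turned without day 0 replicate 2 beyond 20 Mb, for the stretch and for the low-coordinate share, and without day 6 replicate 2 for Ifng minus Pparg.

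For 100-kb windows, against 1 call, DESeq2 and no TMM each gave 0, captured sites 0, the fit on the 4 libraries of day 6 and day 0 gave 3, windows of 200 kb gave 7 and windows of 1 Mb gave 13; leaving out 1 library gave 0 to 2. For 1-Mb windows, against 13 calls, no TMM gave 0 and leaving out 1 library gave 5 to 15. There the higher and lower calls were 11 and 4 with windows shifted by 500 kb. On other chromosomes 0 windows passed in every setting run. The labels do not pair the replicate numbers, and whether same-numbered libraries deviated together depended on distance: over pairs of days, their deviations correlated at -0.0222 to 0.0414 over all 1148 windows of 100 kb, at 0.0472 to 0.335 within 20 Mb, and at 0.747 to 0.842 in the 32 windows of 1 Mb within 20 Mb. With the replicate block, 6 windows of 100 kb passed over the 8 3T3-L1 libraries and 4 over the 4 of day 6 and day 0, and 20 windows of 1 Mb (12 higher, 8 lower). Depth limits far windows most: beyond 20 Mb, a 100-kb window held a median of 3 and 4 reads on day 6, and 23 and 7 on day 0.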
